A study of Mus musculus with 8 samples.

Results

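Leukocyte integrin genes were examined in peak lists of NFATc2 binding and of histone H3 lysine 4 trimethylation (H3K4me3) in the D1 dendritic cell (DC) line. The 8 genes were chosen by name among 22350 protein-coding genes, and they were Itgax, Itgam, Itgad, Itgal, Itgb2, Itgae, Itgb7 and Icam1. For each of them, NFATc2 summits within 100 kb of a transcription start site (TSS) were collected, together with H3K4me3 peaks that overlapped the gene or lay within 1 kb of a TSS. Itgax, Itgam, Itgad and Itgal lie on chromosome 7 and the other 4 genes lie on chromosomes 9, 10, 11 and 15. D1 is a long-term splenic DC line of C57BL/6 mice, kept in medium with GM-CSF supernatant. For the NFATc2 library, D1 cells carried a lentivirus that expressed NFATc2 with a C-terminal V5 tag, so that tagged, added NFATc2 was measured, after 30 min of curdlan at 10 μg/ml. The H3K4me3 libraries were from non-treated (NT) cells, from cells after 2 h of curdlan at the same dose, and from cells after 2 h of curdlan with FK506. Whether those cells carried the tagged protein was not given in the labels. Curdlan is a bacterial beta-glucan that activates the receptor dectin-1, and FK506 blocks calcineurin, the phosphatase that sends NFAT proteins to the nucleus. There was 1 ChIP library with 1 input library for each condition, so no difference between conditions could be tested, and every interval covers counting error only.

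Integrins are heterodimers of an alpha and a beta chain that bind other cells or matrix. The beta chain CD18, encoded by Itgb2, pairs with CD11a (Itgal) to form LFA-1, with CD11b (Itgam) to form Mac-1, with CD11c (Itgax), the usual surface marker of mouse DCs, and with CD11d (Itgad). The beta chain of Itgb7 pairs with CD103 (Itgae), which binds E-cadherin and marks a subset of conventional DCs, and with the alpha chain of Itga4 in gut homing. ICAM-1 (Icam1) is a ligand of LFA-1 and Mac-1 on the partner cell and is a classical inducible gene of inflammation. H3K4me3 marks the start of active and poised genes.

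The authors' lists held 9438 NFATc2 peaks and 15799, 14872 and 14878 H3K4me3 peaks in NT, curdlan and curdlan with FK506. The ChIP libraries had between 14377535 and 21289349 tags and the inputs between 9309800 and 12085435. All 11 dendritic and myeloid markers examined had an H3K4me3 peak in each list, of which 10 had it within 1 kb of a TSS, Flt3 being the exception. Of the 16 T cell, B cell, fibroblast and epithelial markers, Lck and Cdh1 had a TSS peak, and no fibroblast marker had a peak in any list. Away from the TSS, Cd79a and Pax5 had a peak over the gene in each list, and Cd4 had one in NT and curdlan.

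The 6 stretches of sequence that follow are the summits on which the account of the genes turns, taken from the mm9 genome in the plus direction of the chromosome. They run 100 bases to each side of the summit, except that the Itgax stretch runs 14 bases to each side, because it lies in a 3′ UTR of Itgam, and that the Icam1 stretch ends at the base before the TSS. Capitals mark GGAAAA, the NFATc2 motif the study reported, and TGANTCA, the AP-1 recognition sequence with any base in the middle, on either strand. GGAAA without a further A, as in the Icam1 stretch, was left in small letters.
Itgam intron, chr7:135262460-135262660, plus strand: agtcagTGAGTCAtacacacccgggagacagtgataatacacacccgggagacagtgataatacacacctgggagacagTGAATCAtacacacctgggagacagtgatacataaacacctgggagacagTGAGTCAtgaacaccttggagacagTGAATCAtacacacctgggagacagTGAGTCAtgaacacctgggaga
Itgax upstream, chr7:135271595-135271623, plus strand: gtgaatgtgactatcttattcctcatgac
Itgad intron, chr7:135323689-135323889, plus strand: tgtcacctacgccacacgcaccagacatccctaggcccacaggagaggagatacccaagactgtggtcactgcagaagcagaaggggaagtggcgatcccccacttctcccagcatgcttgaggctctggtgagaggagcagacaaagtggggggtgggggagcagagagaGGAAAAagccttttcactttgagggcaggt
Itgb2 intron, chr10:76994586-76994786, plus strand: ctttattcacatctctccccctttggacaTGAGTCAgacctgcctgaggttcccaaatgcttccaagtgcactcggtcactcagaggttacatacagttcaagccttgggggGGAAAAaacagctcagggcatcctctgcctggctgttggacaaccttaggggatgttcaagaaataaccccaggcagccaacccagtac
Itgae intron, chr11:72916661-72916861, plus strand: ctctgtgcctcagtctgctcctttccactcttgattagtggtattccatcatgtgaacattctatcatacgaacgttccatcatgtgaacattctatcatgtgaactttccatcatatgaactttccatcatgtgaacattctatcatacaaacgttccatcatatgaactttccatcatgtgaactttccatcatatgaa
Icam1 promoter, chr9:20820211-20820403, plus strand: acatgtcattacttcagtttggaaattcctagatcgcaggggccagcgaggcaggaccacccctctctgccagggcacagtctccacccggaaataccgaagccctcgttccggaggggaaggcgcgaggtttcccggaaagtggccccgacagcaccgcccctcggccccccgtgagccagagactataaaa
The Itgam stretch held TGANTCA at 5 places, the Itgb2 stretch held both motifs, the Itgad stretch held GGAAAA alone, and the other 3 stretches held neither.

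Around the 8 genes, 27 distinct NFATc2 summits were found, and all 8 genes had at least 1 within 100 kb, as did 55.4% of protein-coding genes. Counted gene by gene there were 39 pairs of gene and summit, because neighbouring genes on chromosome 7 shared summits. Itgax and Itgb2 had 7 summits each, Itgam and Itgad had 6 each, Itgae, Itgb7 and Icam1 had 4 each, and Itgal had 1. Over all protein-coding genes the median was 1 and the upper quartile was 2, and 12% of genes had 4 or more, as 7 of these 8 genes did. Counts of 7 or more were found at 2.2% of genes. The summits of Itgax, Itgam and Itgad are largely the same ones, so these counts are not independent of each other.

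**Figure D1:**
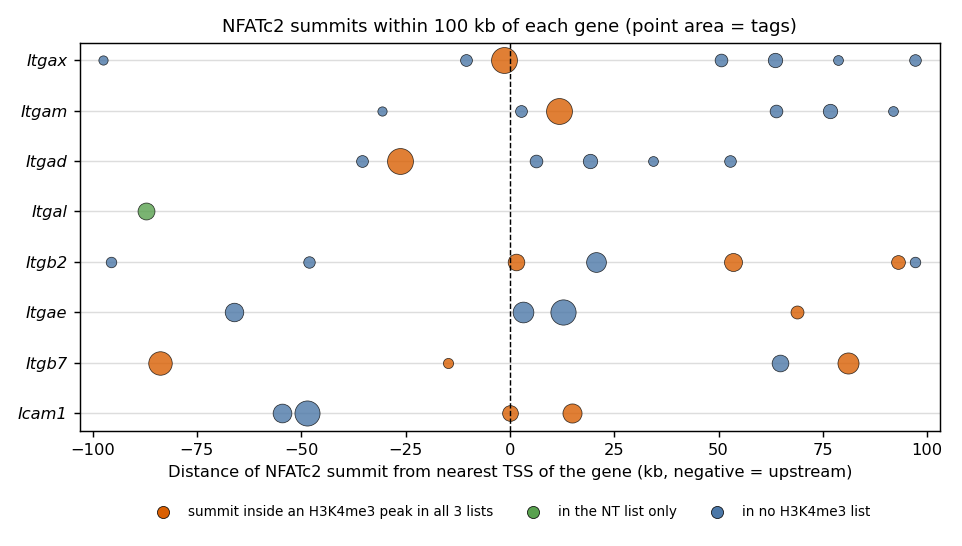
NFATc2 summits within 100 kb of each gene, at their distance in kb from the nearest TSS of that gene (negative is upstream), with point area in proportion to the tags in the peak and colour for the H3K4me3 lists in which the summit lay inside a peak. Icam1 has a summit at its TSS, the other genes have their nearest one between 1.45 and 87.2 kb away, and a summit near Itgax, Itgam and Itgad appears in each of their rows.

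Few of these summits lay at the start of one of the 8 genes, and none at that of an integrin gene. Icam1 had one within 1 kb of its TSS, and no other of the 8 genes did, against 5.29% of protein-coding genes. For 8 of the 27 summits the nearest TSS belonged to one of the 8 genes, and for the other 19 it belonged to another gene, with 4 of these 19 within 1 kb of that other TSS. By position, 12 summits were in introns, 5 in exons and 10 between genes. The peaks held 24 to 187 tags with a median of 77, against a median of 63 over the whole list, and their fold enrichment over input at the summit ran from 5.21 to 68.1 with a median of 12, against 13.36 over the list. By both measures the middle of the group was close to that of the list.

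The CD11 genes Itgam, Itgax and Itgad stand side by side on the plus strand of chromosome 7 and span 143 kb from the start of Itgam to the end of Itgad. Itgam lies at chr7:135206154-135271674, Itgax at chr7:135273061-135294171 and Itgad at chr7:135297890-135349015, with 1386 bp between the first pair and 3718 bp between the second. There were 4 NFATc2 summits between those ends, and 3 more within 100 kb of a TSS. Itgal, which encodes CD11a, lies 766 kb from Itgam at chr7:134439774-134478651, on the same strand.

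The summit with the most tags of all 27 lay at chromosome 7 position 135271609, which is 1452 bp before the Itgax TSS and 65 bp inside the 3′ end of Itgam, in its UTR. Its peak ran from 135271073 to 135275199, 4127 bp across the Itgax TSS, and held 187 tags, more than 92.4% of the peaks in the list. Its fold enrichment was 6.85, higher than 3.4% of the peaks, so that it ranked high by tags and low by enrichment over input at the summit. It lay inside the Itgax H3K4me3 peak in all 3 lists. GGAAAA was not found whole within 100 bp of the summit, the nearest copy beginning 97 bp after it, and the whole peak held 6.

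Inside Itgam, a summit with 39 tags and a fold enrichment of 14.8 lay in an intron at position 135262560. It was 2610 bp after an internal Itgam TSS and about 10.5 kb before the Itgax TSS. As the printed sequence shows, its window held 5 copies of TGANTCA on the plus strand, which began 94 and 21 bases before the summit and 29, 54 and 79 bases after it. The gaps between the starts were 73, 50, 25 and 25 bp, and 68.2% of the bases in the window recurred 25 bases further on, against a median best value of 33.9% over all NFATc2 summits with spacings of 10 to 60 bp. The window is thus a short tandem repeat that carries the motif, and the 5 copies are not 5 separate occurrences in unrelated sequence. Neither it nor any of the other CD11 summits apart from the one before Itgax lay in an H3K4me3 peak.

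Itgad held 2 summits in introns. One had 45 tags and a fold enrichment of 10.0 at position 135323789, 6320 bp after a TSS, with GGAAAA beginning 71 bases after the summit. The other had 58 tags and a fold enrichment of 12.0 at position 135336631, 19.2 kb after a TSS, with GGAAAA 18 bases before the summit, and its nearest TSS was that of Cox6a2. The remaining 3 summits of the cluster had 24 to 38 tags and lay between genes. Itgal stood apart, since its single summit was 87.2 kb upstream, 558 bp before the TSS of Tbc1d10b, with 80 tags and a fold enrichment of 9.26, and in an H3K4me3 peak of the NT list alone.

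**Figure D2:**
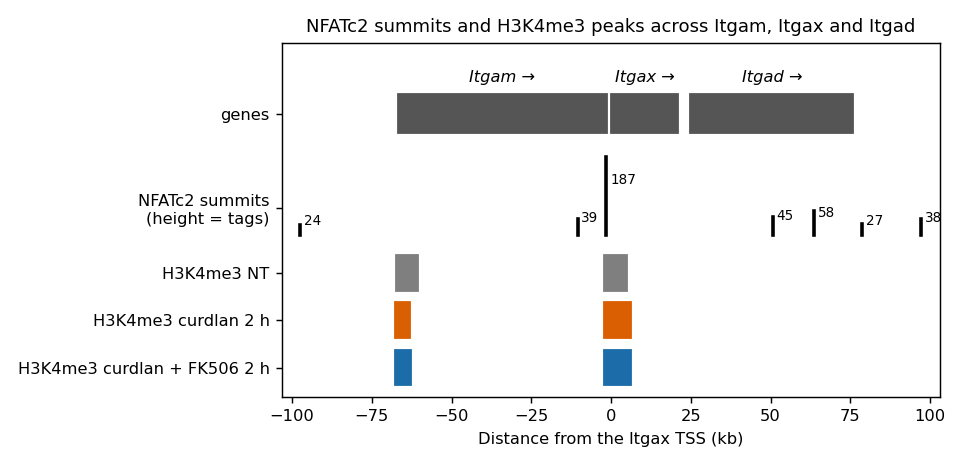
Map of Itgam, Itgax and Itgad in kb from the Itgax TSS, with genes as dark bars transcribed to the right, NFATc2 summits as lines whose height and number give the tags, and H3K4me3 peaks of the 3 lists as coloured bars. The H3K4me3 peaks stand at the starts of Itgam and Itgax, none stands over Itgad, and the summit with 187 tags lies at the Itgax peak.

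Itgb2, which encodes the shared beta chain CD18, lies at chr10:76992997-77028453 on the plus strand and had 2 summits inside the gene. The one in an intron at position 76994686, 1561 bp after a TSS, had 77 tags and a fold enrichment of 24.4, higher than 88.4% of the list, with a p-value of 6.1e-24 from MACS. Its window held TGANTCA from 71 bases before the summit and GGAAAA from 12 bases after it, and it lay inside an H3K4me3 peak in all 3 lists. The second, 20.6 kb after a TSS at position 77013756, had 109 tags and a fold enrichment of 15.1, lay in an exon annotated as UTR, had neither motif within 100 bp, and was outside H3K4me3 peaks. The other 5 lay nearest to Adarb1, 1810008A18Rik, Pttg1ip and Ube2g2, of which the summit at Pttg1ip was 22 bp before its TSS.

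Itgae, which encodes CD103, lies at chr11:72904085-72960948 on the plus strand and also had 2 intronic summits. The one 12676 bp after the TSS, at position 72916761, had 178 tags and the highest fold enrichment of the 27, 68.1, a value passed by few peaks of the list (percentile 99.8). Its FDR in the deposited list was 1.79%, whereas the other peaks here whose p-values were 1e-08 or lower had an FDR of at most 0.25%. The window held neither motif, and 71% of its bases recurred 32 bases further on. Only 0.159% of all NFATc2 summits reached 70% by this measure, so that the strongest enrichment beside these genes stood in repeated sequence. What part the repeat has in the tags there was not tested. The one 3024 bp after the TSS had 120 tags, a fold enrichment of 6.81 and GGAAAA from 31 bases after the summit. Neither lay in an H3K4me3 peak.

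Itgb7 lies at chr15:102046426-102062366 on the minus strand, and its nearest summit was 14.8 kb upstream, 189 bp before the TSS of Rarg, with 29 tags and a fold enrichment of 7.35. Its other 3 summits had 78 to 154 tags and lay nearest to Soat2 and Pfdn5, so no summit had Itgb7 as its nearest gene.

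Icam1 lies at chr9:20820404-20833241 on the plus strand, and NFATc2 was found at its promoter. The summit lay 93 bp before the TSS at position 20820311, with 69 tags, and was inside an H3K4me3 peak in all 3 lists. It had the lowest fold enrichment of the 27, 5.21, which was higher than 0.3% of the list, and a p-value of 6.3e-06, near the authors' limit of 1e-05. Neither motif was found within 100 bp or, for GGAAAA, in the whole peak of 1799 bp. A second summit at position 20835383, 408 bp past the end of Icam4 and 1099 bp before the TSS of Icam5, had 102 tags, a fold enrichment of 11.1 and GGAAAA on the minus strand 18 bases before the summit. Icam4 and Icam5 encode other ICAM family adhesion molecules, and this summit also lay in an H3K4me3 peak in all 3 lists. The other 2 lay 54.5 and 48.6 kb upstream, nearest to Dnmt1 and S1pr2, with 98 and 176 tags.

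Motifs at these summits were counted within 100 bp on either strand. GGAAAA was present at 12 of the 27 summits, against 45.6% of all NFATc2 summits. TGANTCA was present at 4 of 27, against 21.8%, and GAGGAAG, a site of the ETS factor PU.1 type, at 0 of 27, against 20.3%. For GGAAAA the share was near that of the whole list, and an absent motif says only that these letters were not in that window. Inside an H3K4me3 peak of all 3 lists were 10 of the 27 summits, against 20% of all summits, and 16 were in none.

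H3K4me3 was found at the start of Itgax, Itgam, Itgb2, Itgb7 and Icam1 and not at that of Itgad, Itgal or Itgae. In each list, 6 of the 8 had a peak over the gene or within 1 kb of a TSS, against 51.5%, 51.2% and 51.1% of protein-coding genes in NT, curdlan and curdlan with FK506. A peak within 1 kb of a TSS was found at 5 of the 8 in all 3 lists, against 49%, 48.9% and 48.7% of genes. Itgad had none, and the nearest peak was 18.5 to 19.7 kb from a TSS of the gene. Itgal also had none, and the nearest peak was 21.2 kb from a TSS of the gene in every list. Of its 13 neighbours with a TSS within 100 kb, however, 11 had a TSS peak in NT and 12 in both curdlan libraries. A missing peak says that none passed the authors' limit in that library. For Itgae the peak that overlapped the gene lay 42.9 to 43.3 kb after its TSS, at the start of Gsg2, the haspin kinase gene on the opposite strand within Itgae, and its tags numbered 1852 (NT), 1778 (curdlan) and 1520 (curdlan with FK506). No peak stood at the Itgae TSS itself.

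The Itgax peak held the most tags of the 5 in every list. It held 2553 tags in NT, 3773 in curdlan and 3702 in curdlan with FK506, which are 153, 177 and 190 CPM, or tags per 1000000 tags of the ChIP library (95% Poisson intervals 147 to 159, 172 to 183 and 184 to 196). These values were higher than those of 97.6%, 98.9% and 99.2% of genes with a TSS peak in the same list. Its length was 7.3, 8.47 and 8.64 kb. The CPM was higher in both curdlan libraries than in NT, and the counting intervals did not overlap. Per kb of peak length the CPM was 21.0, 20.9 and 22.0. Its fold enrichment at the summit was 45.06, 62.0 and 42.49.

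The neighbouring Itgam was lower in both curdlan libraries than in NT. Its TSS peak held 1817, 1294 and 1316 tags, or 109, 60.8 and 67.6 CPM (intervals 104 to 114, 57.5 to 64.2 and 64.0 to 71.3). The peak was 7.17 kb long in NT, 4.84 kb in curdlan and 5.09 kb with FK506, and the difference lay on the side of the gene body, where it reached 6563, 4051 and 4246 bp past the TSS. Itgb7 was alike in tags, with 1364, 1009 and 886, or 81.9, 47.4 and 45.5 CPM (intervals 77.6 to 86.3, 44.5 to 50.4 and 42.6 to 48.6), with a length of 3.36, 3.4 and 3.28 kb. The fold enrichment of Itgam was 34.49, 40.17 and 62.33, and that of Itgb7 was 39.56, 34.91 and 37.9, which for both genes is another order than that of the tags. For both genes the NT value in CPM was above both curdlan values beyond the counting intervals.

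Icam1 held 1751, 2788 and 2559 tags, or 105, 131 and 131 CPM (intervals 100 to 110, 126 to 136 and 126 to 137). Its peak was 5.12 kb long in NT and 9.15 and 9.32 kb in the curdlan libraries, reaching 3130, 6999 and 7085 bp past the TSS, while its fold enrichment at the summit was 81.2, 68.22 and 58.87. The curdlan peaks thus had a higher CPM and a greater length than the NT peak and a lower fold enrichment, a ratio that depends on the input of each library. Per kb of peak length the CPM was lower too, at 14.3 and 14.1 against 20.5 in NT. Itgb2 held 1788, 2272 and 2117 tags, or 107, 107 and 109 CPM, which differed by less than the counting intervals (102 to 112, 102 to 111 and 104 to 113). Its fold enrichment was 32.44, 44.27 and 60.23. Its curdlan peak of 9.74 kb covered what NT and curdlan with FK506 had as a long peak of 5.25 and 7.19 kb and a second, small one of 130 and 157 tags. The second peak of the FK506 list had an FDR of 18.46%.

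**Figure D3:**
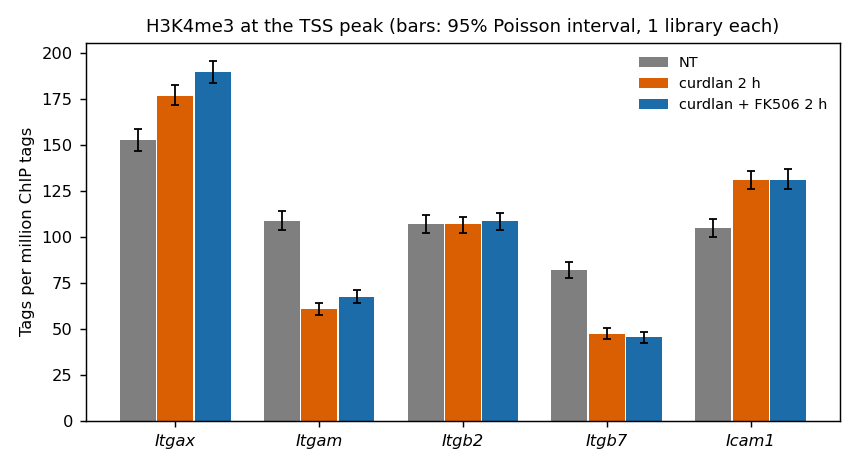
CPM, the tags per 1000000 ChIP tags, in the TSS peak of each gene in the 3 H3K4me3 libraries, as bars from 0 with 95% Poisson intervals of the count, 1 library per bar. Itgam and Itgb7 are lower in both curdlan libraries than in NT, Itgax and Icam1 are higher, and Itgb2 stays at 107 to 109.

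**Figure D4:**
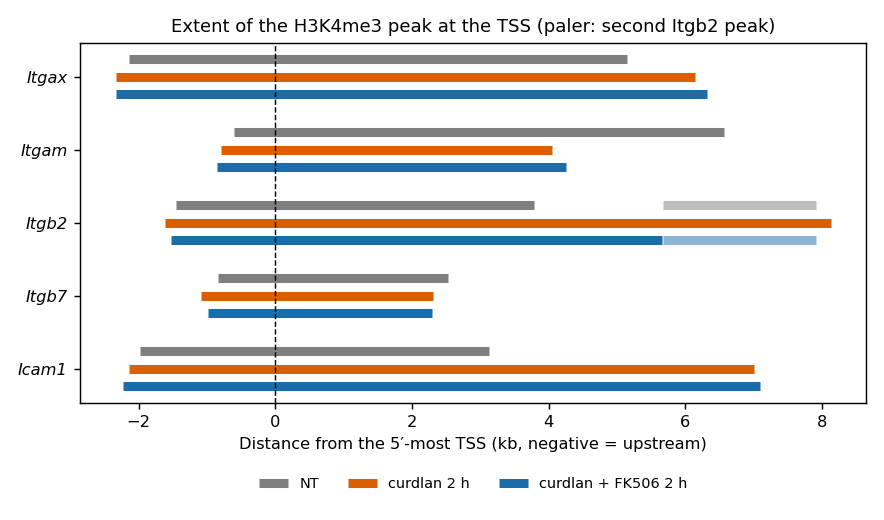
Extent of the TSS peak of each gene in kb from its 5′-most TSS, with the direction of transcription to the right, for the 3 libraries, and paler lines for the second Itgb2 peak. The Icam1 peak reaches 3130 bp past the TSS in NT and 6999 and 7085 bp in the curdlan libraries, and the Itgam peak reaches 6563 bp in NT and 4051 and 4246 bp in the others.

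To compare libraries, the log2 ratio of each gene was centred on the median over the genes with a TSS peak in both lists, of which there were 10815 for curdlan against NT and 10809 for curdlan with FK506 against curdlan. The 2 comparisons share the curdlan library. The median log2 ratio taken out was 0.73 and -0.27 for fold enrichment, which depends on the input, and -0.12 and -0.05 for CPM. A gene was called past 1.5-fold.

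For curdlan against NT, 0 of the 5 genes were called higher and 2 were called lower by fold enrichment, against 14.4% and 14.8% of all genes. Centred log2 ratios of fold enrichment were -0.27 for Itgax, -0.51 for Itgam, -0.29 for Itgb2, -0.91 for Itgb7 and -0.99 for Icam1, so Itgb7 and Icam1 were called. By CPM 0 were called higher and 2 were called lower, against 5.3% and 1.67% of genes, and these were Itgam and Itgb7. The centred log2 ratios of CPM were 0.33 for Itgax (counting interval 0.26 to 0.41), -0.72 for Itgam (-0.82 to -0.62), 0.12 for Itgb2 (0.03 to 0.21), -0.67 for Itgb7 (-0.78 to -0.55) and 0.44 for Icam1 (0.35 to 0.53). Among all genes the Itgam and Itgb7 values stood at percentiles 0.8 and 1.1, and those of Itgax and Icam1 at 88.2 and 92. Itgb7 was called lower by both measures, and Itgax, Itgb2 and Icam1 had opposite signs by fold enrichment and by CPM. By CPM per kb of peak, 0 were called higher and 2 lower, against 1.66% and 1.45% of genes, and these were Itgb2 at -0.72 and Itgb7 at -0.62. Itgam, whose curdlan peak was shorter, was at -0.09, Itgax at 0.18 and Icam1 at -0.34, and none of these was called. The Itgb2 curdlan peak covered 2 NT peaks, and with overlapping peaks joined into 1 domain its centred log2 ratio of CPM was 0.02. Across genes the measures went together weakly (Spearman rho 0.19 over 10815 genes that share the same libraries), and 43.8% of genes had opposite signs.

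For curdlan with FK506 against curdlan, no gene was called by tags. Centred log2 ratios of CPM were 0.15 for Itgax, 0.20 for Itgam, 0.07 for Itgb2, -0.01 for Itgb7 and 0.05 for Icam1, and 0 of 5 passed 1.5-fold in either direction, as did 0.759% of genes upwards and 2.31% downwards. Those of Itgax and Itgam stood at percentiles 90.3 and 94.4 of all genes, above the upper quartile of 0.07, with counting intervals of 0.08 to 0.21 and 0.09 to 0.31. By fold enrichment 2 were called higher, Itgam at 0.90 and Itgb2 at 0.71, and 0 lower, against 14% and 14.6% of genes, with Itgax at -0.28, Itgb7 at 0.39 and Icam1 at 0.05. Neither call was made by tags. Against NT, the library with FK506 gave centred log2 ratios of CPM of 0.49 for Itgax, -0.52 for Itgam, 0.19 for Itgb2, -0.67 for Itgb7 and 0.50 for Icam1. By fold enrichment they were -0.54, 0.40, 0.44, -0.52 and -0.92 in the same order of genes, with the opposite sign for Itgax, Itgam and Icam1. These ratios share the NT library with those of curdlan alone.

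**Figure D5:**
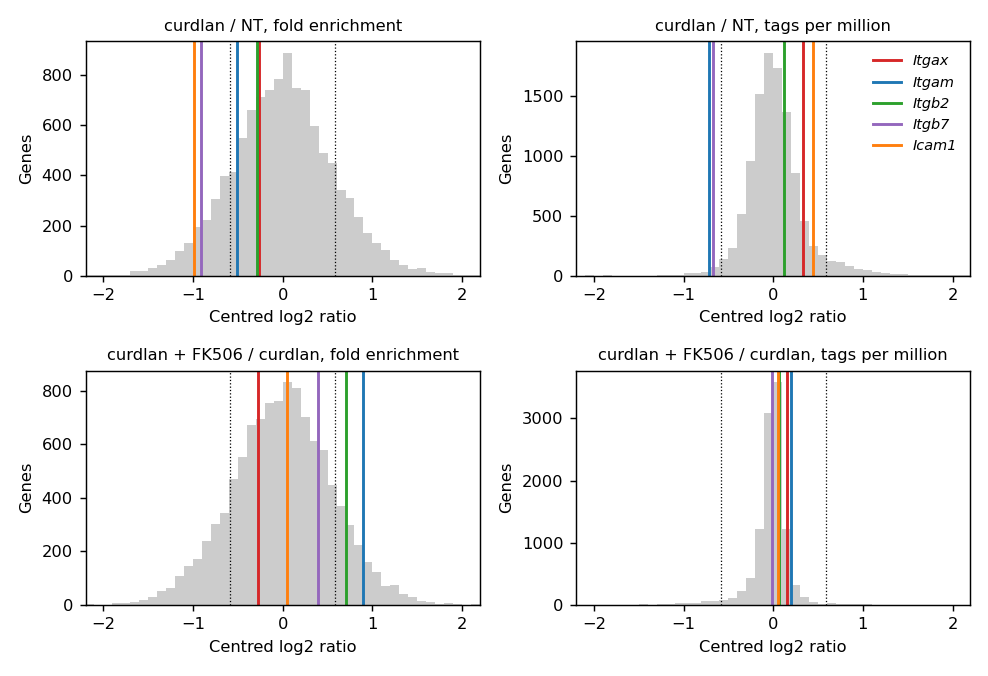
Distribution over all genes with a TSS peak in both lists of the centred log2 ratio, for fold enrichment (left) and CPM (right) and for both comparisons, with dotted lines at 1.5-fold and a coloured line for each of 5 genes. By tags, Itgam and Itgb7 lie in the low tail of curdlan against NT at -0.72 and -0.67, and all 5 genes lie within 0.20 of the median for FK506 against curdlan.

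The genes around the CD11 cluster were read the same way. Of 9 neighbours with a TSS within 100 kb of Itgam, Itgax or Itgad, 4 had a TSS peak in every list. Pycard, which encodes the inflammasome adaptor ASC and lies 68.8 kb before Itgam, held 1056, 779 and 717 tags, a centred log2 ratio of CPM of -0.67 for curdlan against NT. Cox6a2, Trim72, Tgfb1i1 and Slc5a2 had none in any list.

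Other adhesion genes were counted with the same limits. Of 19 further integrin subunits, 14 had an NFATc2 summit within 100 kb, against 55.4% of protein-coding genes. Within 1 kb of a TSS, 2 of them had one, against 5.29%. These were Itga4, the alpha chain that pairs with the products of Itgb1 and Itgb7, with a summit 33 bp after its TSS, and Itgb5, with one 148 bp before its TSS and no H3K4me3 peak in any list. A TSS peak was found at 7 of the 19 in NT and curdlan and 8 with FK506, against 49%, 48.9% and 48.7% of genes. No peak in any list was found at 10. By fold enrichment 1 of the 7 was called higher and 1 lower in curdlan against NT, Itgb1 at 0.84 and Itga6 at -0.66, with a median of 0.2. These calls stand against 14.4% and 14.8% of all genes. By CPM 1 of the 7 was called higher and 0 lower, against 5.3% and 1.67% of all genes. The gene called was Itga2b at 1.05, a peak of few tags, 42, 102 and 119. Its fold enrichment was at 0.2 and not called. For curdlan with FK506 against curdlan 1 was called higher by fold enrichment, Itgav at 0.64, and 1 lower, Itgb1 at -0.70, against 14% and 14.6% of genes, and by CPM 0 were called, with Itgav at 0.01 and Itgb1 at -0.16.

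Of 11 integrin ligands other than Icam1, 8 had a summit within 100 kb and 5 a TSS peak in each list. Among protein-coding genes 55.4% had such a summit, and 49%, 48.9% and 48.7% a TSS peak in NT, curdlan and curdlan with FK506. By fold enrichment F11r, which encodes the junctional ligand JAM-A of LFA-1, was called higher at 1.27 in curdlan against NT, and Icam4 and Icam5, which share 1 peak of 600, 759 and 597 tags, were called lower at -0.99, against 14.4% of all genes called higher and 14.8% lower. F11r was called lower at -0.71 in the comparison of FK506 with curdlan, where 14.6% of all genes were. Jam2, an adhesion molecule of endothelial junctions, had few tags, 86, 321 and 104, and was the ligand past 1.5-fold by tags, at 1.67 and -1.45. By CPM 5.3% of all genes were called higher in curdlan against NT, and 2.31% lower in FK506 against curdlan. The fold enrichment of Jam2 was at -0.04 and 0.1 in these comparisons and was not called. Icam2, Vcam1 and 3 others had no peak in any list.

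Of 18 genes of integrin activation and adhesion, 14 had a summit within 100 kb and 13 a TSS peak in each list. The shares of protein-coding genes were 55.4% for the summit and 49%, 48.9% and 48.7% for the TSS peak. In curdlan against NT 5 were called higher and 1 lower by fold enrichment, against 14.4% and 14.8% of all genes, with a median of 0.51. Pxn (0.82), Sharpin (0.81), Cyth1 (0.68), Vcl (0.68) and Fyb (0.64) were higher, and Rap1b, a small GTPase that activates LFA-1, was lower at -1.20. Rap1b held 1036, 1756 and 1788 tags, or 62.2, 82.5 and 91.8 CPM. Its centred log2 ratio of CPM for curdlan against NT was 0.53, the opposite sign. With FK506 Vcl and Cyth1 were called lower, at -1.66 and -1.25, against 14.6% of all genes. By CPM 0 of the 13 were called in either comparison. Tln1 and Fermt3, which encode the talin and kindlin of leukocytes that bind integrin tails, held 2687, 2773 and 2760 tags and 1856, 1745 and 1940 tags. In CPM these were 161, 130 and 142 for Tln1 and 111, 82.0 and 99.6 for Fermt3.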

How the data were processed

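ChIP-seq peak lists of D1 cells were analysed. Per the file headers and the study's methods, the authors aligned reads to mm9 using Bowtie, kept 1 tag per position and called peaks with MACS 1.4.2 in each ChIP library against its own input, at a p-value limit of 1e-05 and a band width of 300 bp (NFATc2) or 1000 bp (H3K4me3). The deposited tags are raw counts per peak. The deposited score is the p-value as −10 log10. Fold enrichment, as deposited, divides tags at the summit by the input expectation, and the deposited FDR is in percent.

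ChIP totals were 14377535 (NFATc2), 16662316 (NT), 21289349 (curdlan) and 19468498 (curdlan with FK506). Genes and TSSs of every transcript came from Ensembl release 65 on NCBIM37, the build called mm9. Tags were scaled here to CPM with these totals. For each gene the TSS peak was that with the most tags within 1 kb of a TSS. Intervals are exact Poisson at 95%, or conditional binomial for ratios, and cover counting error only, since tags without molecular identifiers are not independent molecules. With 1 library per condition no test was run. Functions were tested on simulated data with known answers (8 of 8 passed). Python 3.11.15, pandas 2.3.3, scipy 1.17.1 and pysam 0.24.0 were used. The 8 genes and the lists were chosen with earlier results of these data known. The text names all 8 genes, and of the other lists genes called past 1.5-fold, with a summit within 1 kb of a TSS or without a peak, up to 6 per list. Motif windows, distances, limits and measures were varied as described in the closing section. The repeat measure, the joined domains and peak length were added after seeing the data, as was the naming of Gsg2, Pycard, Jam2, Itga2b, Tln1 and Fermt3.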

Additional observations from a re-analysis of the deposited data

How the results depend on the processing

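No paired analysis was possible because each condition has 1 library. With 1 library per condition no replicate could be left out. The 27 NFATc2 summits near the 8 genes became 10 with a p-value limit of 1e-10, and 10 and 15 within 20 and 50 kb. GGAAAA was then at 4 of the 10 strict summits. For curdlan against NT, 0 genes higher became 2 by peak length, and 2 lower (Itgb7 and Icam1) became 1 by peak length, 0 without centring and 0 at 2-fold. For curdlan with FK506 against curdlan, 2 genes higher became 0 by CPM, CPM per kb, summed tags, joined domains, peak length and 2-fold, and 1 without centring. Icam1 in curdlan against NT turned from -0.99 to 0.44 by CPM, summed tags and joined domains, and to 0.79 by length. Itgb2 with FK506 turned from 0.71 to -0.41 by length, where the curdlan peak joins what the other lists hold as 2 peaks. The cause of the other changes was not tested. Another 33 recomputed counts stayed within 1.5 times of the values given. An equal count did not always mean the same genes. The 2 lower for curdlan against NT were Itgam and Itgb7 by CPM, and Itgb2 and Itgb7 by CPM per kb. Among recomputed ratios of single genes, 5, all of Icam1 with FK506, moved by less than the counting error, 50 moved by more, Itgax from -0.27 to 0.33 by CPM among them, and the 5 called ones above turned.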
